A study of Mus musculus with 15 samples.

Results

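The genes described here are the glucocorticoid receptor gene Nr3c1, a pair of receptor coactivators, 5 enzymes or enzyme partners that make, regenerate or inactivate steroids, and the gene of the plasma carrier of glucocorticoids. They were chosen by symbol, and all 9 were found among the 15302 genes of the count table. RNA was sequenced from the liver of 15 wild-type (WT) mice, 5 in each of the groups GDF15, PairFed and Vehicle. From 8 weeks of age, all 3 groups ate a MASH diet, one that leads to a fatty and inflamed liver, and lived in single cages at about 29 °C. GDF15 animals received recombinant GDF15, a hormone that lowers food intake through a hindbrain receptor, by a daily subcutaneous dose of 1 nmol/kg, 1 to 2 h after the lights came on. PairFed animals were given what the GDF15 group had eaten on the previous day, and Vehicle animals were the controls. The labels do not state strain, sex or length of treatment. The series title names glucocorticoid signalling as the path under study, so the question put to these genes is whether the liver's means of sensing, carrying and converting glucocorticoids differed between the groups.

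Glucocorticoids reach the liver in plasma bound to transcortin, the product of Serpina6, which the liver itself secretes. Inside the hepatocyte, the enzyme encoded by Hsd11b1 turns the inactive keto form back into active corticosterone in the endoplasmic reticulum, with NADPH that the enzyme encoded by H6pd makes there from glucose 6-phosphate. The hormone then binds the receptor, which enters the nucleus and recruits coactivators of the p160 family, among them the products of Ncoa1 and Ncoa2. Reductases such as that of Srd5a1 inactivate the hormone, Akr1c6 encodes a hydroxysteroid dehydrogenase of mouse liver that acts on sex steroids, and Cyp17a1 encodes the hydroxylase and lyase that leads from progestogens to androgens. The mouse adrenal lacks Cyp17a1, and its main glucocorticoid is therefore corticosterone.

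Total counts ran from 8551557 to 10914914 in GDF15, from 10133289 to 12933324 in PairFed and from 9228127 to 12994187 in Vehicle. Above the widest gap in total count lay 5 libraries, 4 of them PairFed and the last Vehicle 4, and 10 lay below it, so depth and group were partly tied. Vehicle 4 also had the lowest level of Cyp17a1 and Srd5a1 and the highest level of Serpina6 and Akr1c6 in its group. Results on these genes are therefore also given without it. Vehicle 4 was picked by these same values, so the fits without it are descriptions. An outlier check (Dixon ratio, critical value 0.71) over 27 combinations of gene and group flagged 0 libraries. The 10 hepatocyte markers, albumin included, summed to between 100108 and 129786 CPM, that is, counts scaled to library size (TMM), in GDF15, 93983 and 118200 in PairFed, and 84410 and 106249 in Vehicle. They were the most abundant marker list in each group. The 4 Y-linked genes measured summed to at least 112 CPM in each GDF15 library, at least 114 in each PairFed library and at least 125 in each Vehicle library. In whole liver, fewer cells of a type and less RNA per cell cannot be told apart.

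Among the 9 genes, only Cyp17a1 changed in a contrast. All 9 passed the filter on low counts and were tested. The threshold for a change was an adjusted p below 0.05 over all 12274 genes tested, from edgeR's quasi-likelihood test with Benjamini-Hochberg adjustment. GDF15 vs Vehicle called 1 of the 9 genes, beside 2.9% of all genes tested. PairFed vs Vehicle called 0 of the 9 with edgeR, beside 0.285% of all genes. At an unadjusted p below 0.05 there were 2, DESeq2 called 1, Cyp17a1, and limma-voom 0. Over all genes DESeq2 called 340 and limma-voom 38. An unadjusted edgeR p at or below that of Serpina6, 0.0198, was found for 1201 genes, and at or below that of Akr1c6, 0.102, for 3188. The edgeR calls over all genes in PairFed vs Vehicle were split into 0.147% higher and 0.139% lower. GDF15 vs PairFed called 0 of the 9 with edgeR, beside 0.782% of all genes. Here too 2 were below an unadjusted p of 0.05, DESeq2 called 1, again Cyp17a1, and limma-voom 0. Over all genes DESeq2 called 257 and limma-voom 73. An unadjusted edgeR p at or below that of Akr1c6, 0.0108, was found for 628 genes, and at or below that of Nr3c1, 0.126, for 2994. The test for any difference among the 3 groups called 1 of the 9, Cyp17a1, beside 2.71% of all genes. The median log2 fold change of the 9 genes was 0.065 in GDF15 vs Vehicle, -0.021 in PairFed vs Vehicle and 0.13 in GDF15 vs PairFed. Over all genes tested it was -0.0046, -0.00050 and 0.00071 in the same contrasts. The fold change was positive for 7 of the 9 genes in GDF15 vs Vehicle, beside 48.9% of all genes, for 4 in PairFed vs Vehicle, beside 49.9%, and for 7 in GDF15 vs PairFed, beside 50.2%. These contrasts share libraries.

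**Figure D1:**
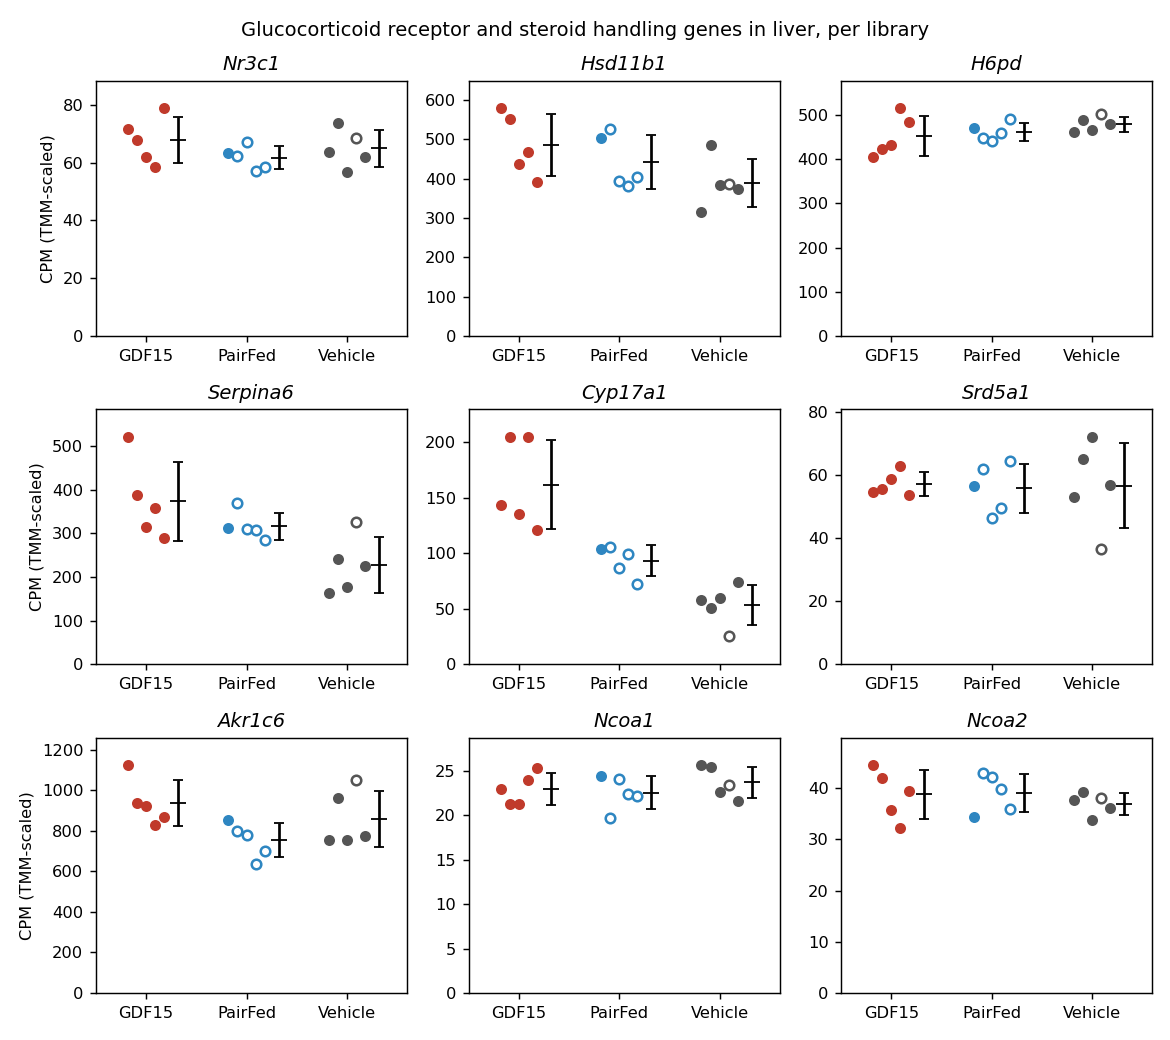
Each panel shows 1 gene, with the level in CPM (vertical axis, from 0) in each library of GDF15, PairFed and Vehicle. Points are libraries, open points are the 5 deeper libraries, and the bar beside each group is the mean with its SD (n = 5). The GDF15 libraries of Cyp17a1 lie between 121 and 205 CPM, above every PairFed and Vehicle library, while the groups of Nr3c1, Ncoa1 and Srd5a1 lie over each other.

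Cyp17a1 (chromosome 19, 46667165 to 46673172 on the minus strand of mm10, 7 merged exons) stood highest in GDF15, between the others in PairFed and lowest in Vehicle. Its level was 144, 205, 135, 205 and 121 CPM in GDF15 1 to 5, 104, 106, 86.6, 99.5 and 72.0 CPM in PairFed 1 to 5, and 58.2, 50.5, 59.6, 25.5 and 73.8 CPM in Vehicle 1 to 5. Every GDF15 library was above every PairFed and every Vehicle library, and 4 of 5 PairFed libraries were above every Vehicle library. Groups without overlap occurred in 3.99% of all genes tested in GDF15 vs Vehicle, in 3.92% in PairFed vs Vehicle and in 2.86% in GDF15 vs PairFed. The mean was 162 ± 40.0 CPM in GDF15, 93.6 ± 14.2 CPM in PairFed and 53.5 ± 17.8 CPM in Vehicle (SD, n = 5 each).

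The gene rose 3.04-fold in GDF15 vs Vehicle, which is 1.60 ± 0.24 on the log2 scale (SE, adjusted p = 0.00371). Its fold change there was above that of 99.8% of the genes tested. PairFed vs Vehicle gave 0.81 ± 0.24 (adjusted p = 0.136), and GDF15 vs PairFed gave 0.79 ± 0.24 (adjusted p = 0.163). With edgeR, neither step between neighbouring groups passed the threshold, although the 95% intervals, 0.29 to 1.33 and 0.28 to 1.30, lay above 0. DESeq2 called Cyp17a1 in both steps (adjusted p = 0.0170 in PairFed vs Vehicle and 0.0164 in GDF15 vs PairFed). The rise over Vehicle stayed past the threshold under each of the 24 alternatives tried. Its log2 fold change ran from 1.42, without Vehicle 4, to 1.75, without Vehicle 5. Without Vehicle 4, the difference between GDF15 and PairFed was past the threshold (0.79, adjusted p = 0.0396) and that between PairFed and Vehicle was 0.62 (adjusted p = 0.0969). Vehicle 4 is in neither GDF15 nor PairFed. The estimate for these groups was 0.79 with and without it, so the lower adjusted p marks no larger difference between them.

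In the PairFed contrasts, the estimates for Cyp17a1 changed when depth was put in the fit. Among the shallower libraries the mean was 162 CPM in 5 GDF15 libraries, 104 CPM in 1 PairFed library and 60.5 CPM in 4 Vehicle libraries. Among the deeper ones it was 91.0 CPM in 4 PairFed libraries and 25.5 CPM in Vehicle 4. PairFed 1 lay within the range of the deeper PairFed libraries, 72.0 to 106 CPM, while Vehicle 4 lay below the other Vehicle libraries. With a term for the deeper libraries, GDF15 vs PairFed stood at 0.22 (adjusted p = 0.886) and PairFed vs Vehicle stood at 1.29 (adjusted p = 0.167), while GDF15 vs Vehicle was 1.51 (adjusted p = 0.00326). Among the shallower libraries alone, GDF15 vs Vehicle was 1.42 (adjusted p = 0.00972). In the fit with the depth term only Vehicle 4 and PairFed 1 part depth from group, so the steps to and from PairFed cannot be told apart from depth. The order of the means was the same among the shallower libraries, where PairFed had 1 library.

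**Figure D2:**
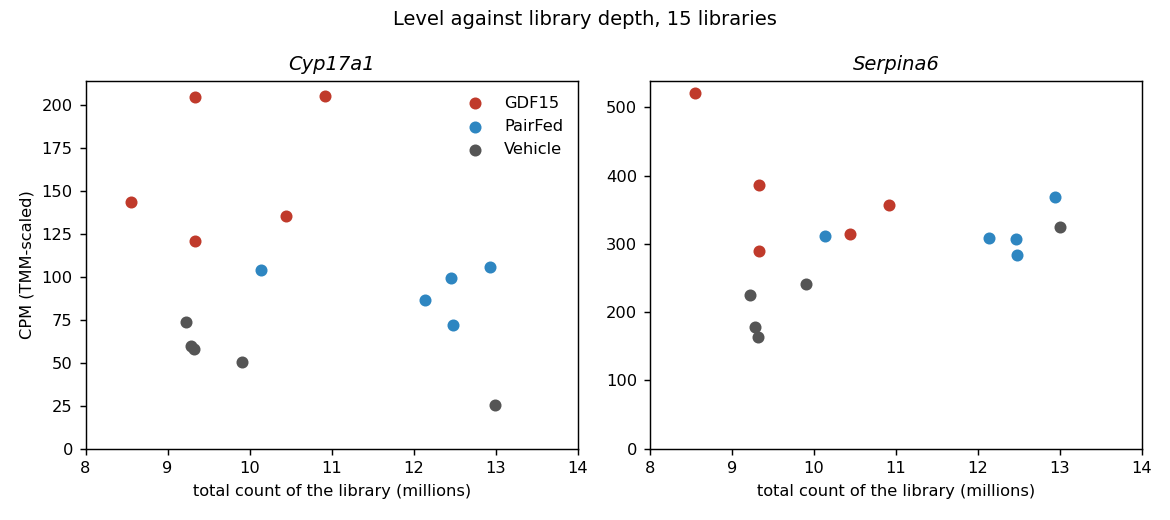
The level of Cyp17a1 and Serpina6 in CPM (vertical axis) is plotted against the total count of each library (horizontal axis), with 1 point per library coloured by group. The deepest Vehicle library has the lowest Cyp17a1 level, 25.5 CPM, and the highest Serpina6 level of its group, 325 CPM.

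Markers of tissues that make steroids were near the floor of detection. Of 9 markers of adrenal or gonad, 5 were measured, and their sum ranged from 1.15 to 3.15 CPM in GDF15, from 3.06 to 3.38 CPM in PairFed and from 3.30 to 4.99 CPM in Vehicle. Cyp11a1, which opens steroid synthesis, had no counts in PairFed, and Hsd3b1 had none in Vehicle. The sum of 21 immediate-early genes, which respond fast to many stimuli, had its highest values in GDF15. It ranged from 608 to 2161 CPM in GDF15, from 703 to 1343 CPM in PairFed and from 449 to 856 CPM in Vehicle. Their part in the result was not tested.

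Serpina6 (chromosome 12, 103646630 to 103657212, minus strand, 6 merged exons) followed the same order of means, just outside the threshold. Its level was 521, 387, 314, 357 and 289 CPM in GDF15 1 to 5, 312, 368, 309, 308 and 284 CPM in PairFed 1 to 5, and 164, 242, 178, 325 and 225 CPM in Vehicle 1 to 5. Vehicle 4 lay within the range of the other groups, whereas the other 4 Vehicle libraries lay below every GDF15 and PairFed library. The mean was 374 ± 90.4 CPM in GDF15, 316 ± 31.2 CPM in PairFed and 227 ± 63.8 CPM in Vehicle (SD, n = 5 each).

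The log2 fold change of the carrier gene was 0.72 ± 0.18 in GDF15 vs Vehicle (SE, adjusted p = 0.0503), 0.48 ± 0.18 in PairFed vs Vehicle (adjusted p = 0.202) and 0.24 ± 0.18 in GDF15 vs PairFed (adjusted p = 0.624). In GDF15 vs Vehicle it was past the threshold in 7 of 24 alternatives. Among them were DESeq2 (adjusted p = 0.00242), limma-voom (adjusted p = 0.0282) and the fit without Vehicle 4 (0.88, adjusted p = 0.0113). Without Vehicle 4, PairFed vs Vehicle was 0.64 (adjusted p = 0.0731). Over all 24 the adjusted p ran from 0.00242 to 0.131, the last in the fit of only the GDF15 and Vehicle libraries. Without GDF15 1, which had the highest level, the log2 fold change was 0.57 (adjusted p = 0.119). With the depth term the values were 0.81 in GDF15 vs Vehicle, 0.29 in PairFed vs Vehicle and 0.52 in GDF15 vs PairFed, the first at an adjusted p = 0.0262. Of the hepatocyte markers, 3 of 10 rose in GDF15 vs Vehicle, beside 2.02% of all genes, with a median log2 fold change of 0.24. Tat, also on the list of receptor targets, was 1 that rose (1.66 ± 0.32, adjusted p = 0.0167). The markers moved unequally. Cps1 and Ass1 averaged 2560 and 3535 CPM in GDF15 against 1514 and 2098 CPM in Vehicle. Ttr and Fgb averaged 5252 and 3383 CPM against 4985 and 3209 CPM. The part of the hepatocyte markers in the level of Serpina6 was not tested. Of 2 other secreted hepatocyte products set beside it, Alb was at 0.26 ± 0.10 and Gc, the vitamin D carrier, at 0.056 ± 0.062 in GDF15 vs Vehicle (adjusted p = 0.174 and 0.706). Both are on the list of 16 tested plasma carriers and inhibitors. In this contrast 13 of the 16 had a positive fold change, beside 48.9% of all genes, and 2 rose past the threshold, beside 2.02%.

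**Figure D3:**
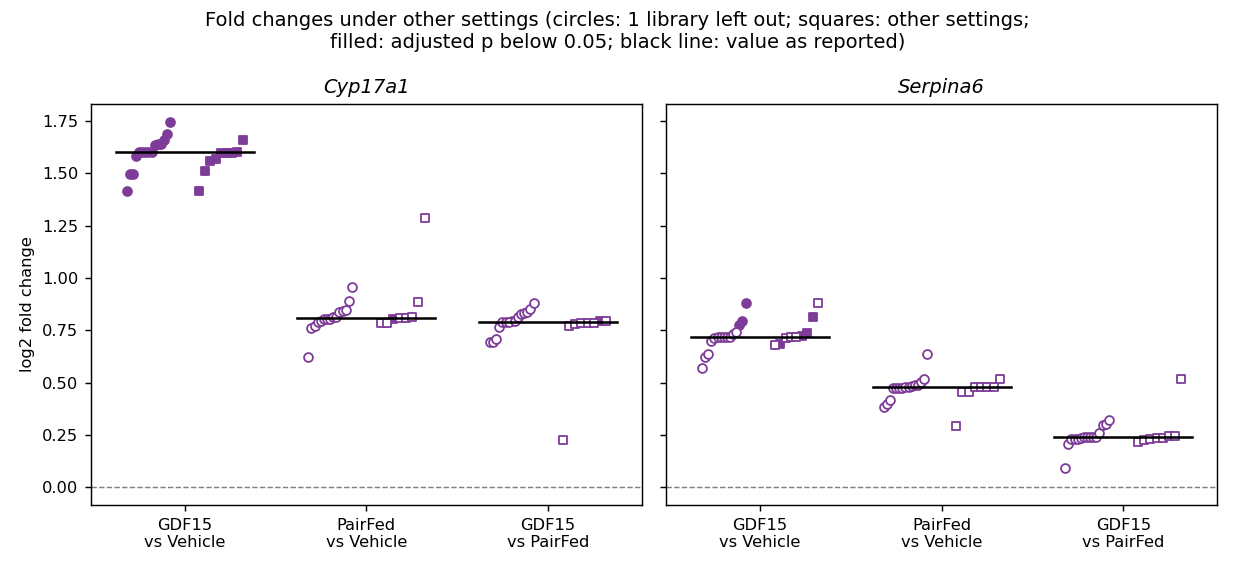
The log2 fold change (vertical axis) of Cyp17a1 and Serpina6 in each contrast is shown under other settings: circles leave out 1 library, squares are the other settings, filled symbols have an adjusted p below 0.05, and the black line is the value as reported. All symbols of Cyp17a1 in GDF15 vs Vehicle are filled, between 1.42 and 1.75, and the outlying squares in the PairFed contrasts are those with the depth term, at 1.29 and 0.22.

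Hsd11b1 and H6pd, the pair that regenerates corticosterone, did not pass the threshold in any of the 3 contrasts. Hsd11b1 (chromosome 1, 193221634 to 193264075, minus strand) had 579, 551, 439, 469 and 391 CPM in GDF15 1 to 5, 504, 527, 393, 382 and 405 CPM in PairFed 1 to 5, and 316, 487, 384, 388 and 373 CPM in Vehicle 1 to 5. The groups overlapped, with 2 GDF15 libraries and 2 PairFed libraries above every Vehicle library. The log2 fold change was 0.32 ± 0.13 in GDF15 vs Vehicle (SE, adjusted p = 0.212), with a 95% interval from 0.048 to 0.59 before adjustment for the number of genes. It was 0.18 ± 0.13 in PairFed vs Vehicle (adjusted p = 0.486) and 0.13 ± 0.13 in GDF15 vs PairFed (adjusted p = 0.704). The gene lies within Lamb3, a laminin gene on the other strand with 1344 counts in all, and no stretch of 31 bases of its transcripts was shared with any other annotated transcript.

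H6pd (chromosome 4, 149979475 to 150009023, minus strand) averaged 452 ± 45.4 CPM in GDF15, 462 ± 20.0 CPM in PairFed and 480 ± 16.9 CPM in Vehicle (SD, n = 5 each). It ranged from 406 to 515 CPM in GDF15, from 442 to 492 CPM in PairFed and from 461 to 502 CPM in Vehicle, so GDF15 held both the lowest and the highest library. Its log2 fold change was -0.085 ± 0.066 in GDF15 vs Vehicle (SE, adjusted p = 0.561). It was -0.053 ± 0.066 in PairFed vs Vehicle and -0.031 ± 0.066 in GDF15 vs PairFed (adjusted p = 0.722 and 0.886). The 95% interval in GDF15 vs Vehicle ran from -0.22 to 0.054. Slc37a4, the transporter that brings glucose 6-phosphate to the enzyme, did rise: it had 179 ± 23.4 CPM in GDF15, 138 ± 9.41 CPM in PairFed and 140 ± 11.9 CPM in Vehicle (SD, n = 5 each). Its log2 fold change was 0.36 ± 0.08 in GDF15 vs Vehicle (adjusted p = 0.0270) and 0.38 ± 0.08 in GDF15 vs PairFed (adjusted p = 0.0448). The GDF15 libraries did not overlap with either of the other groups.

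The receptor gene Nr3c1 (chromosome 18, 39410545 to 39519421, minus strand, 13 merged exons) had 71.6, 68.0, 61.9, 58.6 and 78.8 CPM in GDF15 1 to 5, 63.5, 62.2, 67.2, 57.2 and 58.7 CPM in PairFed 1 to 5, and 63.6, 73.7, 56.7, 68.6 and 62.1 CPM in Vehicle 1 to 5. The 3 groups overlapped. Its log2 fold change was 0.060 in GDF15 vs Vehicle, with a 95% interval from -0.12 to 0.24. PairFed vs Vehicle gave -0.073 (interval -0.25 to 0.10) and GDF15 vs PairFed 0.13 (interval -0.041 to 0.31), and the adjusted p was 0.778, 0.694 and 0.517 in the same order.

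The coactivator genes did not pass the threshold in any of the 3 contrasts. Ncoa1 (chromosome 12, 4247362 to 4477182, minus strand) ranged from 21.2 to 25.3 CPM in GDF15, from 19.7 to 24.4 CPM in PairFed and from 21.6 to 25.6 CPM in Vehicle. Ncoa2 (chromosome 1, 13139105 to 13374083, minus strand) ranged from 32.3 to 44.5 CPM in GDF15, from 34.4 to 43.0 CPM in PairFed and from 33.8 to 39.3 CPM in Vehicle. In GDF15 vs Vehicle, Ncoa1 stood at -0.048 ± 0.078 and Ncoa2 at 0.065 ± 0.086 (SE, adjusted p = 0.818 and 0.765). The largest absolute log2 fold change of either in the other contrasts was 0.079, for Ncoa2 in PairFed vs Vehicle. The groups overlapped for both genes. Between libraries of a group, the coefficient of variation of Ncoa1 was 7.76% in GDF15, 8.32% in PairFed and 7.37% in Vehicle, and that of Ncoa2 was 12.5% in GDF15, 9.65% in PairFed and 5.75% in Vehicle.

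**Figure D4:**
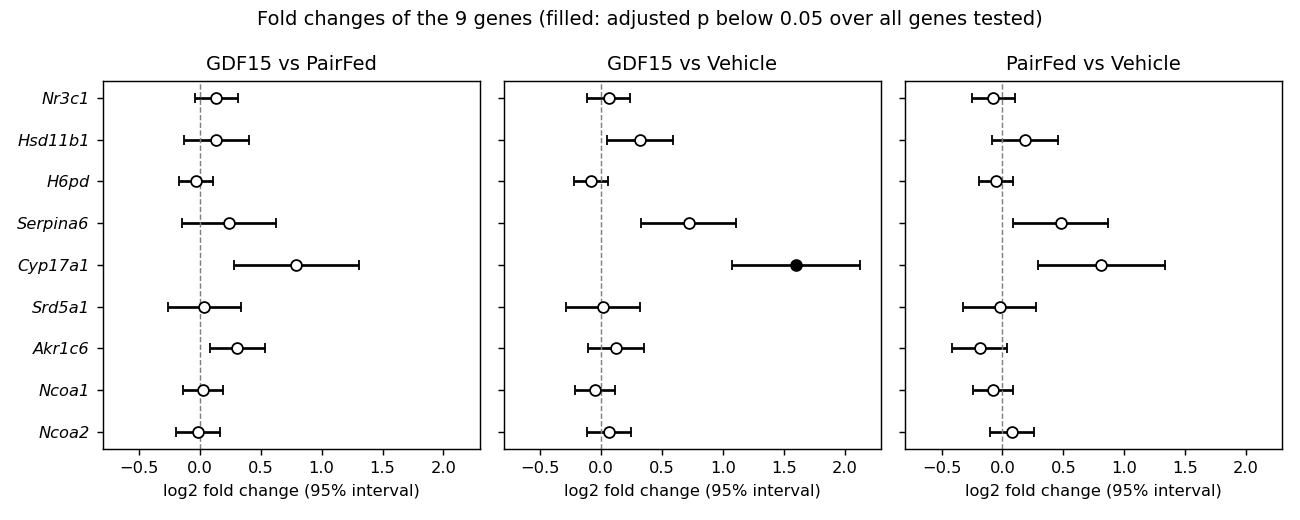
The log2 fold change of each of the 9 genes (horizontal axis) is shown in each contrast with its 95% interval, and a filled point has an adjusted p below 0.05 over all genes tested. The only filled point is Cyp17a1 in GDF15 vs Vehicle, at 1.60, and the intervals of Nr3c1, H6pd, Ncoa1 and Ncoa2 are narrow and cross 0 in each contrast.

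Srd5a1 (chromosome 13, 69573449 to 69611442, minus strand), the reductase that inactivates glucocorticoids and activates testosterone, had nearly equal means. They were 57.2 ± 3.77 CPM in GDF15, 55.8 ± 7.85 CPM in PairFed and 56.8 ± 13.4 CPM in Vehicle (SD, n = 5 each). In Vehicle the libraries spread from 36.8 to 72.2 CPM, a range that held every GDF15 and PairFed library. The log2 fold change of Srd5a1 was 0.016 in GDF15 vs Vehicle, with a 95% interval from -0.29 to 0.32 (adjusted p = 0.971). PairFed vs Vehicle gave -0.021, with an interval from -0.32 to 0.28 (adjusted p = 0.957). GDF15 vs PairFed gave 0.036 (adjusted p = 0.943). Without Vehicle 4, the values were -0.11 in GDF15 vs Vehicle and -0.15 in PairFed vs Vehicle, neither past the threshold. Of its stretches of 31 bases, 15.7% are shared with Gm17108, an annotated gene that overlaps it on the same strand and has no row in the count table, so reads from that stretch cannot be told apart between them. Srd5a1 also lies within Nsun2, a protein-coding gene on the other strand with 11269 counts in all. No stretch of 31 bases is shared between their annotated transcripts.

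Akr1c6 (chromosome 13, 4434306 to 4457877, plus strand) had 1124, 935, 924, 827 and 869 CPM in GDF15 1 to 5, 856, 801, 781, 638 and 702 CPM in PairFed 1 to 5, and 753, 965, 757, 1051 and 776 CPM in Vehicle 1 to 5. PairFed had the lowest mean, and 4 of 5 GDF15 libraries were above every PairFed library. The log2 fold change was 0.31 ± 0.11 in GDF15 vs PairFed (SE, adjusted p = 0.210), 0.12 ± 0.11 in GDF15 vs Vehicle (adjusted p = 0.621) and -0.19 ± 0.11 in PairFed vs Vehicle (adjusted p = 0.392), none past the threshold. Without Vehicle 4, GDF15 vs Vehicle was 0.20 and PairFed vs Vehicle -0.11.

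Akr1c6 belongs to a cluster of near copies, and its nearest relative in the annotation is Akr1c20 on the same chromosome. The coding sequences of the pair have 969 bases each and are 92.3% identical. The stretch from coding base 394 to 518, counted from 1 at the start codon, holds their longest identical run, 65 bases, and is shown because a read that falls inside that run cannot be told apart between them. Capitals mark the 5 bases that differ, and the sequences are from GENCODE M21 on GRCm38.
Akr1c6: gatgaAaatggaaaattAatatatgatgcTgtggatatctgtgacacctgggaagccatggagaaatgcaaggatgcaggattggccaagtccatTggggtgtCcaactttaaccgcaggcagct
Akr1c20: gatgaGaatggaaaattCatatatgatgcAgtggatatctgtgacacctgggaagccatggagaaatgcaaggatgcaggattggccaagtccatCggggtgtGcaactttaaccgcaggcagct

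In all, 5.53% of the stretches of 31 bases of Akr1c6 occur in Akr1c20. Akr1c20 averaged 111 ± 12.7 CPM in GDF15, 95.5 ± 15.6 CPM in PairFed and 102 ± 9.10 CPM in Vehicle (SD, n = 5 each), and its log2 fold change was 0.12 in GDF15 vs Vehicle, 0.21 in GDF15 vs PairFed and -0.096 in PairFed vs Vehicle. As counted, the order of its group means was the same as that of Akr1c6.

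Per length, the levels of the 9 genes differed widely. In CPM per kilobase of merged exons, Akr1c6 stood at 460 in GDF15, 372 in PairFed and 423 in Vehicle, the highest of the 9 in each group. Serpina6 came next, at 212 in GDF15, 180 in PairFed and 129 in Vehicle. Hsd11b1 and H6pd had 114 and 86.4 in GDF15, 104 and 88.3 in PairFed, and both 91.6 in Vehicle. Cyp17a1 stood at 58.4 in GDF15, 33.8 in PairFed and 19.3 in Vehicle, and Srd5a1 at 19.7, 19.2 and 19.5 in the same groups. In Vehicle the level of Cyp17a1 per kilobase was thus close to that of Srd5a1, and in GDF15 it was above it. Nr3c1 had 8.82 in GDF15, 8.04 in PairFed and 8.45 in Vehicle, and Ncoa1 and Ncoa2 were each below 2.8 in every group. These levels depend on the annotated exons, which may not be the transcript set the authors used.

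Genes that act with the 9 were read from lists written from general knowledge, but with earlier results of these data known. Their counts beside the shares of all genes are therefore descriptions. Of the 139 tested genes of the lists on chaperones, coregulators, other receptors, steroid enzymes, conjugation, NADPH supply and carriers, 10 rose and 3 fell in GDF15 vs Vehicle, with receptor targets and the 9 genes left out. In GDF15 vs PairFed 3 rose and 1 fell. In PairFed vs Vehicle edgeR called 0 of the 139, with 33 below an unadjusted p of 0.05. DESeq2 called 8 of the 139 and limma-voom 1, beside 340 and 38 of all genes. In the same contrast, 1201 of all genes had an unadjusted edgeR p at or below 0.0198, and 3188 at or below 0.102. Whether the 33 exceed the share of all genes below 0.05 was not tested. Of all genes tested, 2.02% rose and 0.88% fell in GDF15 vs Vehicle, and 0.562% rose and 0.22% fell in GDF15 vs PairFed. The median log2 fold change of the 139 was 0.067 in GDF15 vs Vehicle.

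Among the 22 coregulators, 1 rose in GDF15 vs Vehicle and none fell: Ppargc1a, a coactivator of glucose production, with 24.6 ± 6.61 CPM in GDF15, 13.5 ± 2.66 CPM in PairFed and 12.1 ± 1.43 CPM in Vehicle (SD, n = 5 each). Its log2 fold change was 1.02 ± 0.17 over Vehicle (adjusted p = 0.00371) and 0.86 ± 0.17 over PairFed (adjusted p = 0.0253). Smarca4, the ATPase of a chromatin remodeller, and Ncor1, a corepressor, stood at 0.067 and -0.047 in GDF15 vs Vehicle. The list median was 0.054.

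Of the 17 chaperones and co-chaperones of the receptor, 1 rose and 1 fell in GDF15 vs Vehicle, with a median of 0.0065. Fkbp5, itself induced by the receptor, rose by 1.69 ± 0.16 on the log2 scale (adjusted p = 6.95e-05), and Hspa8, a constitutive heat shock protein, fell by 0.30 on the log2 scale (adjusted p = 0.0435). In GDF15 vs PairFed, Fkbp5 and Fkbp4 rose and none fell. Fkbp4, the co-chaperone that Fkbp5 competes with, ranged from 168 to 221 CPM in GDF15, from 127 to 166 CPM in PairFed and from 166 to 203 CPM in Vehicle. It rose by 0.41 ± 0.09 over PairFed (SE, adjusted p = 0.0387) and was at 0.11 ± 0.09 over Vehicle (adjusted p = 0.595). Hsp90ab1, which carries the receptor, was at -0.054 in GDF15 vs Vehicle.

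Of 13 tested genes of glucocorticoid and A-ring reduction, 2 rose and none fell in GDF15 vs Vehicle, with a median of 0.17. Akr1d1, the reductase that inactivates glucocorticoids on the other face of the ring from Srd5a1, had 194 ± 25.1 CPM in GDF15, 155 ± 23.1 CPM in PairFed and 142 ± 19.7 CPM in Vehicle (SD, n = 5 each), and rose by 0.45 ± 0.11 (adjusted p = 0.0427). Akr1c19, of the same cluster as Akr1c6, rose by 0.37 ± 0.08 (adjusted p = 0.0170). Akr1b7, an aldo-keto reductase at low level, averaged 2.63 ± 2.55 CPM in GDF15, 2.18 ± 1.68 CPM in PairFed and 0.613 ± 0.527 CPM in Vehicle (SD, n = 5 each), and stood at 2.10 ± 0.77 in GDF15 vs Vehicle (adjusted p = 0.173). It is named after its values were seen. Cyp3a11, a hydroxylase of steroids and drugs, was at 0.17 ± 0.11 (adjusted p = 0.460). Of 14 tested hydroxysteroid dehydrogenases, none rose and 1 fell, with a median of 0.015. This was Hsd17b2, which inactivates estradiol and testosterone, with 69.8 ± 5.54 CPM in GDF15, 76.9 ± 5.86 CPM in PairFed and 89.7 ± 9.53 CPM in Vehicle (SD, n = 5 each), at -0.36 ± 0.08 in GDF15 vs Vehicle (adjusted p = 0.0194).

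The partners of Cyp17a1 did not share one pattern. Of 15 tested steroid-synthesis P450 genes, electron donors and sterol transport genes, 1 rose in GDF15 vs Vehicle, with a list median of 0.051. Por, the reductase that passes electrons to Cyp17a1 and the other P450s of the endoplasmic reticulum, had 324 ± 109 CPM in GDF15, 264 ± 46.7 CPM in PairFed and 142 ± 45.1 CPM in Vehicle (SD, n = 5 each). It rose by 1.18 ± 0.26 in GDF15 vs Vehicle (adjusted p = 0.0295) and was at 0.89 ± 0.26 in PairFed vs Vehicle (adjusted p = 0.128). Cyb5a, the cytochrome that favours the lyase step of Cyp17a1, was at 0.051 ± 0.099 in GDF15 vs Vehicle (adjusted p = 0.854).

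In steroid conjugation 2 of 16 tested genes rose and 1 fell in GDF15 vs Vehicle, with a median of 0.085. Papss2, which makes the sulfate donor, had 215 ± 27.0 CPM in GDF15, 169 ± 20.2 CPM in PairFed and 129 ± 21.0 CPM in Vehicle, and Sult1a1, a sulfotransferase, had 392 ± 49.6, 323 ± 43.3 and 241 ± 26.8 CPM in the same groups (SD, n = 5 each). Over Vehicle they rose by 0.74 ± 0.11 and 0.70 ± 0.10 (adjusted p = 0.00199 and 0.00188). Ugt2b35, a glucuronosyltransferase, fell to 146 ± 6.25 CPM in GDF15, against 180 ± 10.6 CPM in Vehicle (adjusted p = 0.00986), and was at 178 ± 10.3 CPM in PairFed. It can share reads with other members of its family.

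In the other lists, Nr1i2, the pregnane X receptor, was the 1 gene that rose of 14 tested steroid and sterol receptors in GDF15 vs Vehicle (0.54 ± 0.11, adjusted p = 0.0121), with a list median of 0.16. Of 16 tested plasma carriers and inhibitors, Serpina1d, which can share reads with its copies, and Serpinf1 rose by 0.53 ± 0.11 and 0.29 ± 0.07 (adjusted p = 0.0138 and 0.0317), with a list median of 0.19. Of 14 genes of NADPH and glucose 6-phosphate supply, Slc37a4 was the 1 that rose, with a list median of 0.047. Of 20 targets of the receptor, whose direction in these libraries was known when the list was written, 12 rose in GDF15 vs Vehicle (median 1.31) and 6 in GDF15 vs PairFed (median 0.79). In PairFed vs Vehicle edgeR called 0 of the 20, with 8 below an unadjusted p of 0.05. Over all genes, 1201 had an unadjusted edgeR p at or below 0.0198. DESeq2 called 3 of the 20 and limma-voom 1, beside 340 and 38 of all genes. Fkbp5 among them had 85.1 ± 19.1 CPM in GDF15, 32.8 ± 5.41 CPM in PairFed and 26.2 ± 4.25 CPM in Vehicle (SD, n = 5 each).

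**Figure D5:**
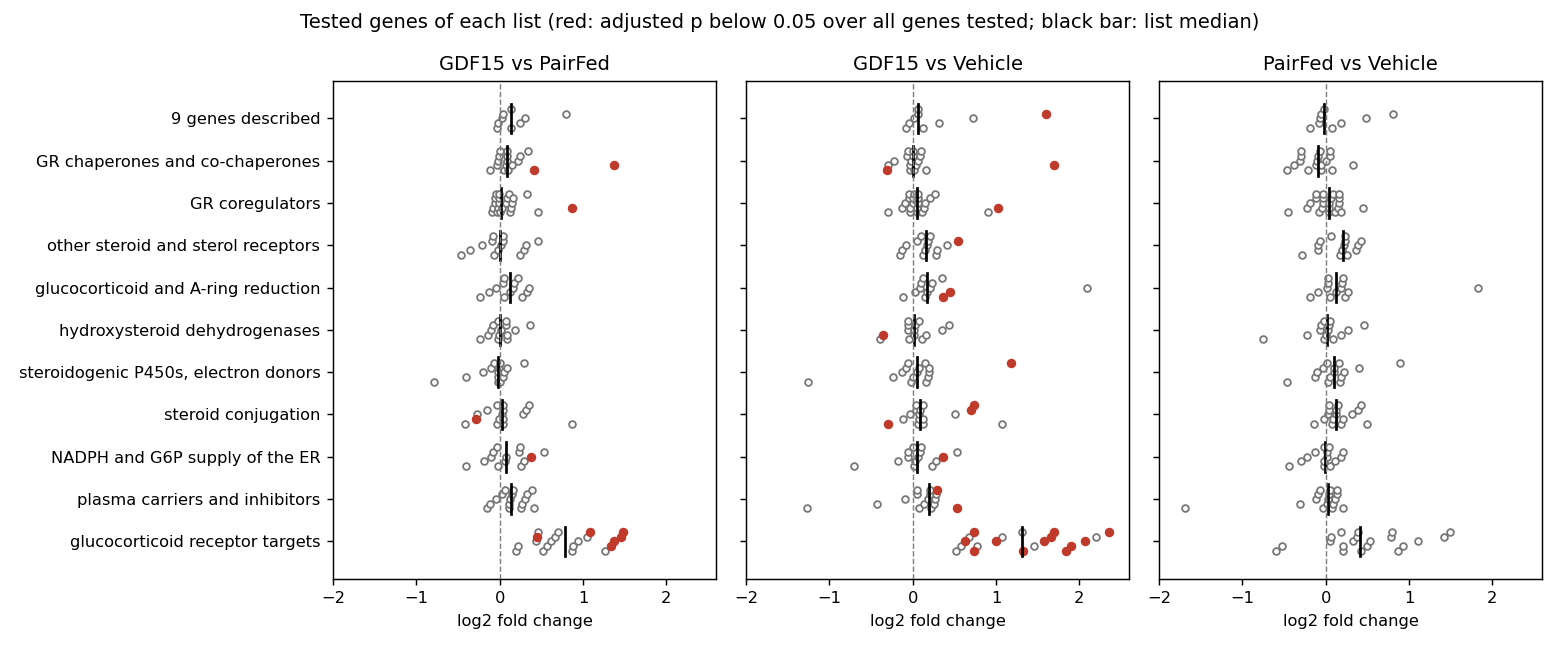
Each point is a tested gene of a list, placed by its log2 fold change (horizontal axis) in each contrast, red where the adjusted p is below 0.05 over all genes tested, and the black bar is the list median. In GDF15 vs Vehicle the receptor targets have a median of 1.31, while the medians of the other lists lie between 0.0065 and 0.19.

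For 8 of the 9 genes, those most like them in pattern over the 15 libraries are given, as found by Pearson r of log2 CPM, as a description, since the libraries share their groups and their depth. For Cyp17a1 they were Dpyd, which breaks down pyrimidines (r = 0.939), Fads1, a fatty acid desaturase (r = 0.923), and Gls2, the liver glutaminase (r = 0.917). With the group means removed, r was 0.773, 0.861 and 0.659. For Serpina6 they were Bckdha, a subunit of the branched-chain keto acid dehydrogenase (r = 0.967), Lcat, which esterifies plasma cholesterol (r = 0.955), and Car5a, a mitochondrial carbonic anhydrase (r = 0.945), and r was 0.926, 0.905 and 0.871 with the group means removed. Hikeshi, a nuclear import carrier of heat shock proteins, was most like Hsd11b1 (r = 0.935), and Rgs19, a regulator of G protein signalling, was most like H6pd (r = 0.893). For Srd5a1 it was Seh1l, a nuclear pore subunit (r = 0.910), and for Akr1c6 it was Chac2, which breaks down glutathione (r = 0.914). For the coactivators it was Fyco1, an adaptor of vesicle transport, with Ncoa1 (r = 0.890) and Dctpp1, a nucleotide pyrophosphatase, with Ncoa2 (r = 0.873).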

How the data were processed

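The authors deposited whole-number estimated counts per gene symbol, 1 column per library, not scaled to depth. Salmon, DESeq2 and the build mm10 are named without roles in the submitters' processing notes, so reading the values as rounded Salmon output is an inference from those names. Per the labels' protocols the library kit was directional; neither label nor note states the transcript set or the strand setting. Columns were assigned to groups by name, and numbers within a group follow the table and pair nothing. Separate animals are assumed from the labels. The 9 genes and the gene lists were chosen with earlier results of these data known.

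Genes were filtered with filterByExpr (count 10, total 15) in edgeR 4.0.16 under R 4.3.3, leaving 12274 genes. Libraries were scaled by TMM, and all 15 entered 1 quasi-likelihood fit with robust estimation. CPM, SE (from the F statistic) and intervals were computed here. The fit was tested on simulated data. Alternatives were DESeq2 1.42.0 and limma 3.58.1 (voom), 2 other scalings, no filter or 10 CPM in 5 libraries, fits of only the groups compared, a depth term and leaving out each library. A fit of the shallower libraries was added after the data were seen. Positions, exons and shared stretches of 31 bases are from GENCODE M21 on GRCm38, the primary sequence of mm10. Genes were named by a rule: the 9 genes, called genes of each list with up to 2 abundant uncalled ones, and up to 3 genes of like pattern (mean log2 CPM at or above 1). Akr1c20, Gm17108, Lamb3 and Nsun2 were named for sequence or position, and not every gene of the rule is printed.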

Additional observations from a re-analysis of the deposited data

How the results depend on the processing

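Of the 630 combinations of gene, contrast and alternative, 593 kept direction and side of the threshold, 27 changed sign and 10 passed the threshold. The number of the 9 genes called in GDF15 vs Vehicle, 1 as reported, was 2 with the filter of 10 CPM, DESeq2, limma-voom or the depth term, and 1 to 2 without each library. In PairFed vs Vehicle it was 1 with DESeq2 in place of 0, and in GDF15 vs PairFed 1 with DESeq2 in place of 0, and 0 to 1 without each library. For any difference it was 2 with DESeq2 (likelihood-ratio test), and 1 to 2 without each library. The cause of these changes was not tested.

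All genes called numbered 356 in GDF15 vs Vehicle, with 642 by DESeq2, 194 in the fit of the 2 groups, 151 in the shallower libraries and 134 to 476 without each library. In PairFed vs Vehicle they numbered 35, with 340 by DESeq2, 0 with the depth term and 0 to 135 without each library. In GDF15 vs PairFed they numbered 96, with 257 by DESeq2, 9 with the depth term and 21 to 171 without each library. For any difference they numbered 333, with 860 by DESeq2 and 142 to 471 without each library.

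The sign changes fell on genes whose values as reported were near 0, and none was past the threshold. With the depth term Srd5a1 moved further from 0, as given next. Srd5a1 turned to -0.024 (upper-quartile scaling), -0.013 (filter of 10 CPM), -0.043 (depth term) and -0.11 (shallower libraries) in GDF15 vs Vehicle, to 0.0069 (limma-voom) and 0.23 (depth term) in PairFed vs Vehicle, and to -0.28 (depth term) in GDF15 vs PairFed. With the depth term Ncoa2 turned to -0.0037 in PairFed vs Vehicle and 0.097 in GDF15 vs PairFed, and Ncoa1 to -0.040 in GDF15 vs PairFed. Without each library, values in GDF15 vs Vehicle ran from -0.0044 to 0.11 for Nr3c1 and from -0.11 to 0.11 for Srd5a1, and in PairFed vs Vehicle from -0.15 to 0.076 for Srd5a1. In GDF15 vs PairFed they ran from -0.080 to 0.0048 for H6pd, from -0.023 to 0.095 for Srd5a1, from -0.017 to 0.056 for Ncoa1 and from -0.067 to 0.048 for Ncoa2. No paired analysis was possible because the columns carry no animal that ties a PairFed library to a GDF15 library.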

Other observations

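Within groups, the levels of Serpina6, Hsd11b1 and Akr1c6 went up and down together. With the group means removed over the 15 libraries, log2 CPM of Serpina6 had a Pearson r of 0.779 with Akr1c6 and 0.658 with Hsd11b1, and Akr1c6 had 0.677 with Hsd11b1. Other pairs came close to these in size: Nr3c1 had 0.637 with Ncoa2 and 0.603 with Akr1c6, and H6pd had -0.633 with Ncoa2. The r of Cyp17a1 was -0.312 with Serpina6, -0.478 with Akr1c6, 0.174 with Hsd11b1 and 0.567 with Srd5a1. These are descriptions over libraries that share depth and scaling, and 36 pairs were computed.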
